A study of Mus musculus with 18 samples.

Results

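The 36 genes described here encode the working parts of the lysosome and of autophagy: membrane proteins, proteases, glycosidases, lipid-handling proteins, subunits of the proton pump (V-ATPase), autophagy proteins and a pair of transcription factors. They are a list of gene symbols, drawn up with earlier results of these data known and matched to the 24394 symbols shared by the 3 deposited tables. All 36 were found in each table and all 36 passed the filter on low counts in each comparison. Positions and exon lengths are those of GENCODE M21 on GRCm38.

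RNA-seq counts of 18 libraries were compared, all declared as mouse esophageal organoids, which are three-dimensional cultures of dissociated tissue in a basement membrane gel. Each library was declared Trp53-/- with overexpressed Myc (Myc OE) and a guide against Cdkn2a (sgCdkn2a), so the control groups carried these changes too. In the first table, tumor organoids that also carried a guide against Tgfbr2 (sgTgfbr2), the type II receptor of TGF-beta, were given 2 µM pinaverium bromide (PB, a calcium channel blocker; n = 3) or DMSO (vehicle; n = 3). In the second, premalignant organoids carried sgTgfbr2 (n = 4) or a control guide, named sgScr in the titles (n = 3), and the titles number the sgTgfbr2 libraries sgTgfbr2_1 and sgTgfbr2_2, 2 libraries each. In the third, tumor organoids carried sgTgfbr2 (n = 2) or sgScr (n = 3). The shared growth medium held A83-01, an inhibitor of TGF-beta type I receptors, at 2 µM. PB and vehicle organoids had been cultured for 72 h before treatment, per the labels' protocols. The labels do not say whether the numbers mark guides or lines, or whether a line is 1 clone, and libraries of 1 number may share a source. Nothing says that replicates were separate cultures or animals, and the p-values then measure the spread between these libraries alone, which may be technical.

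Lysosomes are acidic organelles that break down proteins, sugars, lipids and whole organelles. The V-ATPase pumps protons into them, and autophagosomes, membranes that close around cytoplasm, deliver part of their load. TFEB and TFE3, transcription factors of the MiT family, bind CACGTG-type sites near many lysosomal genes, and amino acid sensing through mTORC1 at the lysosomal surface keeps them out of the nucleus.

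Total counts per library lay between 14993749 and 21784140, so that 3 counts stood for 0.138 to 0.200 CPM. CPM here are counts scaled to the library total, while fold changes come from TMM-scaled libraries, so a small fold change can differ from the ratio of the printed CPM. Tgfbr2 itself was still counted in sgTgfbr2 libraries, at 86.2 to 131 CPM in premalignant sgTgfbr2 against 179 to 219 CPM in premalignant sgScr, and at 67.5 and 71.2 CPM in tumor sgTgfbr2 against 112 to 129 CPM in tumor sgScr. A cut in the gene need not remove its RNA, so this checks the labels only in part. Markers of other cell types set the tumor table apart. Summed muscle markers reached 219 and 261 CPM in the libraries labelled tumor sgTgfbr2 and 21611 to 22395 CPM in those labelled tumor sgScr, against at most 14.8 CPM in any library of the other tables. In tumor sgTgfbr2 nearly all of this sum was Des, the filament protein desmin, at 213 to 258 CPM. Both tumor groups also carried other markers. Fibroblast sums were 2449 to 3202 CPM over the tumor libraries, against at most 4.69 CPM in the other tables. Immune sums were 1134 to 1233 CPM, against at most 61.0 CPM, and endothelial sums 99.9 to 142 CPM, against at most 2.12 CPM. Summed columnar and gland markers were 34639 and 38800 CPM in tumor sgTgfbr2 and 1.95 to 2.69 CPM in tumor sgScr. The vehicle libraries, declared with the same genotype as tumor sgTgfbr2, had 718 to 729 CPM of these markers, nearly all of it the simple-epithelial keratins Krt18 and Krt8. The gland genes Pgc and Clps, at means of 25623 and 6178 CPM in tumor sgTgfbr2, had no count in vehicle. All 10 squamous epithelial markers were counted in every group.

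Promoters are shown for genes of this set because a match to the TFEB and TFE3 site can be read from them. RefSeq promoters (build GRCm38.p6, 250 bases before to 50 bases after each start) were on hand for 30 of the 36 genes. The 6-base core CACGTG, searched on both strands, lay in 10 of these 30 (33.3%), against 8.09% of all 27025 genes with a promoter. The longer TCACGTGA, which contains that core and reads the same on both strands, lay in 7 of 30 (23.3%), against 1.12% of all genes, and in 6 of the 101 other pathway genes listed below (5.94%). TCACGTGA with a G before it and a C after it lay in 0 of 30, against 0.37% of all genes. A match describes letters in the window and is not a measured binding site. The first 5 promoters below hold TCACGTGA and the last holds neither motif. Capitals mark TCACGTGA, and CACGTG where the core stands without its flanks. The sequences run 5′ to 3′ on the gene's strand.
Gla promoter, chrX:134600956-134601255, minus strand: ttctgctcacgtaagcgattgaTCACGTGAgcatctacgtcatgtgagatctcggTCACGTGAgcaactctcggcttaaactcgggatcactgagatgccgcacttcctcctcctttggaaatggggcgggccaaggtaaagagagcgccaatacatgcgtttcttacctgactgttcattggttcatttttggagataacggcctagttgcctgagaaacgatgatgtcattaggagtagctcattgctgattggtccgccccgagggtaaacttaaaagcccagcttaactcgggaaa
Atp6v0d1 promoter, chr8:105566015-105566314, minus strand: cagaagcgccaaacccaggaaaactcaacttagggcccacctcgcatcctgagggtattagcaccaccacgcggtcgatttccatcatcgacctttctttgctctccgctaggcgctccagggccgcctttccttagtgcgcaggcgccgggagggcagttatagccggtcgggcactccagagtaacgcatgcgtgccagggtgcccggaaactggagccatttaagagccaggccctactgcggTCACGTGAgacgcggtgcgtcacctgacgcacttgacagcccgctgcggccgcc
Atp6v1a promoter, chr16:44139210-44139509, minus strand: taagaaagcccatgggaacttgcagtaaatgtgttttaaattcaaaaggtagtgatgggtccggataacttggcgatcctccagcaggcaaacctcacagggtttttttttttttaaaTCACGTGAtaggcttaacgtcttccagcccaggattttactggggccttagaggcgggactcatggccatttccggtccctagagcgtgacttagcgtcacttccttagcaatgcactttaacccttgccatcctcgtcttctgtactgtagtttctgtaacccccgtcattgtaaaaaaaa
Ctsd promoter, chr7:142387778-142388077, minus strand: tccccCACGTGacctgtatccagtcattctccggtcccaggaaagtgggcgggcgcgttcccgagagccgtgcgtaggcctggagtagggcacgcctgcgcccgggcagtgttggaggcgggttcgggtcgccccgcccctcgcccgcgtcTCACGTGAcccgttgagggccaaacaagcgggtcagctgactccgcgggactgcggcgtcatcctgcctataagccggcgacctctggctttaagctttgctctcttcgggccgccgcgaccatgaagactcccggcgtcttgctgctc
Mcoln1 promoter, chr8:3500269-3500568, plus strand: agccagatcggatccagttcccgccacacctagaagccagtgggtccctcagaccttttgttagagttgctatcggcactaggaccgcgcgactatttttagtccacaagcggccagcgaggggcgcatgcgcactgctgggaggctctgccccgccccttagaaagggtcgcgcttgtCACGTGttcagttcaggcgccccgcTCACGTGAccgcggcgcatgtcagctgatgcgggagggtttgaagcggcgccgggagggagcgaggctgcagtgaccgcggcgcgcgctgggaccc
Neu1 promoter, chr17:34931003-34931302, plus strand: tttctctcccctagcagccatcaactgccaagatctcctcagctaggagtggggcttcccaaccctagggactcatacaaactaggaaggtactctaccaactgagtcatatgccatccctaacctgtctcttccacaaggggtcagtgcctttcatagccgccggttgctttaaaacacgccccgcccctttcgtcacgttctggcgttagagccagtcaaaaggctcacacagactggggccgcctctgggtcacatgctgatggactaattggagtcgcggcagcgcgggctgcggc
In Gla, which encodes alpha-galactosidase A, the motif stands in 2 copies. In Atp6v0d1, a V-ATPase subunit, it begins at base -4 from the transcript start.

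Per kilobase of exon, Ctsd, the aspartic protease cathepsin D, had the highest level of the 36 genes in each of the 6 groups. It stood at 527 CPM per kb in PB and 523 in vehicle, 457 in premalignant sgTgfbr2 and 378 in premalignant sgScr, and 914 in tumor sgTgfbr2 and 927 in tumor sgScr. Psap, the precursor of the saposins that help hydrolases reach lipids, stood second in vehicle at 189 CPM per kb. Tfeb had the lowest level per kilobase in vehicle, at 2.27 CPM per kb, and Tfe3 stood at 8.33 CPM per kb in the same group. Because each table was deposited on its own, levels were not tested between tables.

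In PB-treated organoids most of the set was higher than in vehicle. With edgeR's quasi-likelihood test, 27 of 36 genes rose and 4 fell at an adjusted p under 0.05, against 36.5% and 36.8% of all 12801 genes tested, of which 73.3% passed in either direction. The median log2 fold change was 0.25 over the 36 genes and -0.01 over all genes. Most changes were small: 2 genes, Neu1 and Sqstm1, exceeded a log2 fold change of 1. All 7 V-ATPase subunits rose, as did 4 of 5 membrane proteins, 5 of 6 autophagy genes, 3 of 4 lipid-handling genes, 4 of 7 proteases and 3 of 5 glycosidases. Every PB library lay above every vehicle library for 21 of the 36 genes and below for 7, against 26.2% and 48.5% of all genes. Of the edgeR calls, 21 higher and 3 lower held in every alternative run, apart from the minimum log2 fold change of 1. Summed markers of 3 cell types also differed between the groups. Squamous markers summed to 9957 to 10065 CPM in PB and 11666 to 11843 CPM in vehicle, columnar markers to 455 to 460 CPM in PB and 718 to 729 CPM in vehicle, and muscle markers to 6.94 to 8.11 CPM in PB and 11.0 to 11.7 CPM in vehicle. The squamous list went both ways: Krt5, Krt14, Krt13, Krt4, Trp63 and Pkp1 were lower in every PB library, and Sox2, Dsg3, Col17a1 and Perp were higher in every PB library. The columnar sum was nearly all Krt18 and Krt8. The part of these markers in the result was not tested. Immune sums overlapped, at 39.7 to 46.6 CPM in PB and 38.7 to 43.8 CPM in vehicle, nearly all of it Cd68, itself a lysosomal glycoprotein. Of the 12 immune markers, Cd74 and Laptm5 were higher in every PB library, Fcer1g was lower and 9 overlapped. The macrophage markers Lyz2, Tyrobp and Adgre1 had no count in either group.

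**Figure D1:**
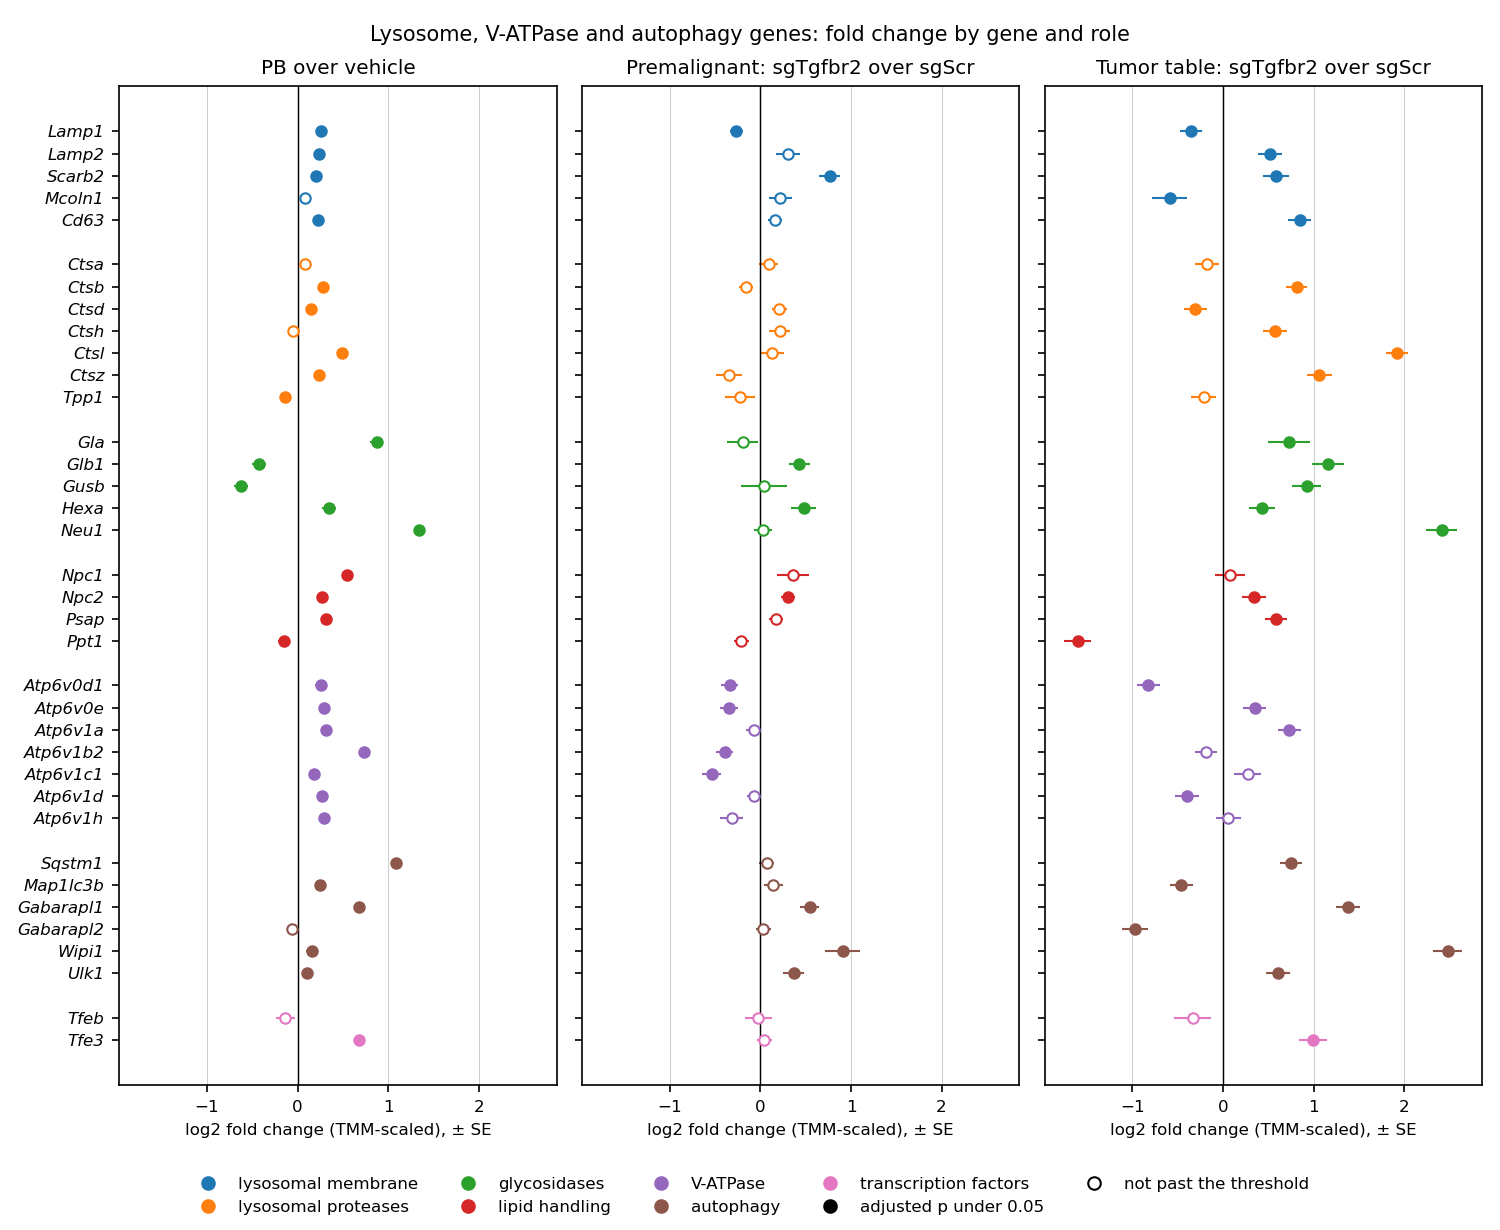
Log2 fold change of each gene, with its standard error, in PB over vehicle (left), premalignant sgTgfbr2 over sgScr (middle) and tumor sgTgfbr2 over sgScr (right); rows are genes grouped by role, and filled points passed an adjusted p of 0.05. All 7 V-ATPase subunits lie above 0 under PB and all 7 lie below 0 in premalignant sgTgfbr2, 4 of those past the threshold, although Atp6v1d lies at 0.00 there on the library total alone.

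Among membrane proteins, Lamp1, a heavily glycosylated coat protein of the lysosome, had 355, 354 and 356 CPM in PB, against 328, 324 and 329 CPM in vehicle. The groups did not overlap, and Lamp1 rose by 0.26 ± 0.02 (log2, SE; edgeR adjusted p = 5.49e-15). Scarb2, the receptor that carries glucocerebrosidase to lysosomes, had 133, 132 and 128 CPM in PB and 122, 125 and 130.2 CPM in vehicle. Its libraries overlapped, while the scaled fold rose by 0.20 ± 0.03 (edgeR adjusted p = 1.47e-07) and did not pass without TMM scaling. Mcoln1, a calcium channel of the lysosomal membrane, had 32.3, 33.0 and 31.5 CPM in PB and 33.7, 32.4 and 34.5 CPM in vehicle, with a log2 fold change of 0.08 ± 0.06 and an edgeR adjusted p of 0.206.

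Of the proteases, Ctsl, the cysteine protease cathepsin L, showed the highest fold. It had 435, 419 and 445 CPM in PB, against 347, 344 and 331 CPM in vehicle, and rose by 0.48 ± 0.03 (edgeR adjusted p = 3.64e-27). Tpp1, a tripeptidyl peptidase, had 74.2, 77.0 and 76.3 CPM in PB, against 94.7, 90.6 and 90.7 CPM in vehicle, and fell by 0.14 ± 0.04 on the log2 scale (edgeR adjusted p = 0.00134). Neither gene's groups overlapped. Ctsb, Ctsd and Ctsz rose by 0.28, 0.15 and 0.24, and the call of Ctsd was lost on the library total. Ctsa and Ctsh did not pass.

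The glycosidases, which trim sugars, moved in both directions, with log2 fold changes of -0.63 to 1.34. Neu1 (chr17:34931253-34935953), the lysosomal sialidase, had 60.7, 59.7 and 60.0 CPM in PB, against 27.3, 25.0 and 26.2 CPM in vehicle. It rose 2.53-fold (log2 1.34 ± 0.06, edgeR adjusted p = 2.04e-32). Gusb (chr5:129989011-130003049), beta-glucuronidase, had 17.2, 15.5 and 17.2 CPM in PB, against 25.8, 29.4 and 29.8 CPM in vehicle, and fell by 0.63 ± 0.08 on the log2 scale (edgeR adjusted p = 6.91e-11). Every PB library was above every vehicle library for Neu1 and below for Gusb. Gla rose by 0.87 and Hexa, a beta-hexosaminidase subunit, by 0.35, while Glb1, beta-galactosidase, fell by 0.42 on the log2 scale.

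Among lipid-handling genes, Npc1, the cholesterol exporter of the lysosomal membrane, had 103, 102 and 102 CPM in PB, against 73.8, 77.9 and 79.3 CPM in vehicle. It rose by 0.55 ± 0.04 (edgeR adjusted p = 1.13e-20). Npc2, its soluble partner, rose by 0.27 and Psap by 0.31. Ppt1, a thioesterase that removes palmitate from proteins, had 28.2, 29.3 and 29.3 CPM in PB, against 33.6, 37.8 and 35.0 CPM in vehicle, and fell by 0.15 ± 0.06 on the log2 scale (edgeR adjusted p = 0.0253). That call was lost with DESeq2 and when vehicle replicate 2 or PB replicate 1 was left out.

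All 7 V-ATPase subunits rose, by 0.18 to 0.74, though the calls of Atp6v0d1 and Atp6v1c1 were lost on the library total. Atp6v1b2 (chr8:69088646-69113711), a subunit of the ATP-splitting ring, had 289, 286 and 289.5 CPM in PB, against 196, 186 and 191 CPM in vehicle, without overlap. It rose 1.67-fold (log2 0.74 ± 0.03, edgeR adjusted p = 1.32e-35). Atp6v1c1, a stalk subunit, had 43.5, 46.4 and 47.3 CPM in PB and 46.3, 43.0 and 44.1 CPM in vehicle. Its libraries overlapped, and the scaled fold of 0.18 ± 0.05 (edgeR adjusted p = 0.0022) did not pass without TMM scaling. Summed over the 7 subunits, the level was 776 ± 5.0 CPM in PB and 631 ± 4.3 CPM in vehicle (SD, n = 3 each).

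Of the autophagy genes, Sqstm1 (chr11:50199366-50210827), which encodes the cargo receptor p62, had 329.9, 336 and 335 CPM in PB, against 177, 169 and 173 CPM in vehicle. It rose 2.12-fold (log2 1.09 ± 0.03, edgeR adjusted p = 1.34e-45) with no overlap. Gabarapl1, an ATG8-family protein that is joined to autophagosome membranes, rose by 0.68, and Map1lc3b, another member of that family, by 0.24. Ulk1, the kinase that starts autophagy, had 90.6, 90.6 and 93.7 CPM in PB and 93.5, 93.7 and 94.4 CPM in vehicle. The libraries overlapped, and the sign depended on scaling: the log2 fold change was 0.10 ± 0.04 with TMM (edgeR adjusted p = 0.00988) and -0.035 on the library total alone. Its call was also lost without PB replicate 3. Wipi1, a phosphoinositide-binding protein of the forming autophagosome, rose by 0.16, a call lost on the library total, with DESeq2, where its adjusted p was 0.0571, and without vehicle replicate 3 or PB replicate 1.

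Of the transcription factors, Tfe3 passed and Tfeb did not. Tfe3 (chrX:7762560-7775202) had 112, 115 and 108 CPM in PB, against 77.7, 73.5 and 80.2 CPM in vehicle, and rose 1.59-fold (log2 0.67 ± 0.04, edgeR adjusted p = 4.54e-25). Tfeb (chr17:47737030-47792419) had 11.1, 10.6 and 10.3 CPM in PB and 14.8, 12.4 and 11.5 CPM in vehicle. All PB values of Tfeb lay below all vehicle values, but the scaled log2 fold change was -0.14 ± 0.10 and did not pass (edgeR adjusted p = 0.239), while on the library total Tfeb passed as lower. Of the 7 genes with TCACGTGA in the promoter, 5 rose (71.4%) and 0 fell. Of the 23 with a promoter but no such motif, 17 rose (73.9%) and 4 fell (17.4%). Of the 6 without a promoter entry, 5 rose (83.3%) and 0 fell. A link between the motif and the fold change was not tested. Over all genes tested 36.5% rose and 36.8% fell.

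**Figure D2:**
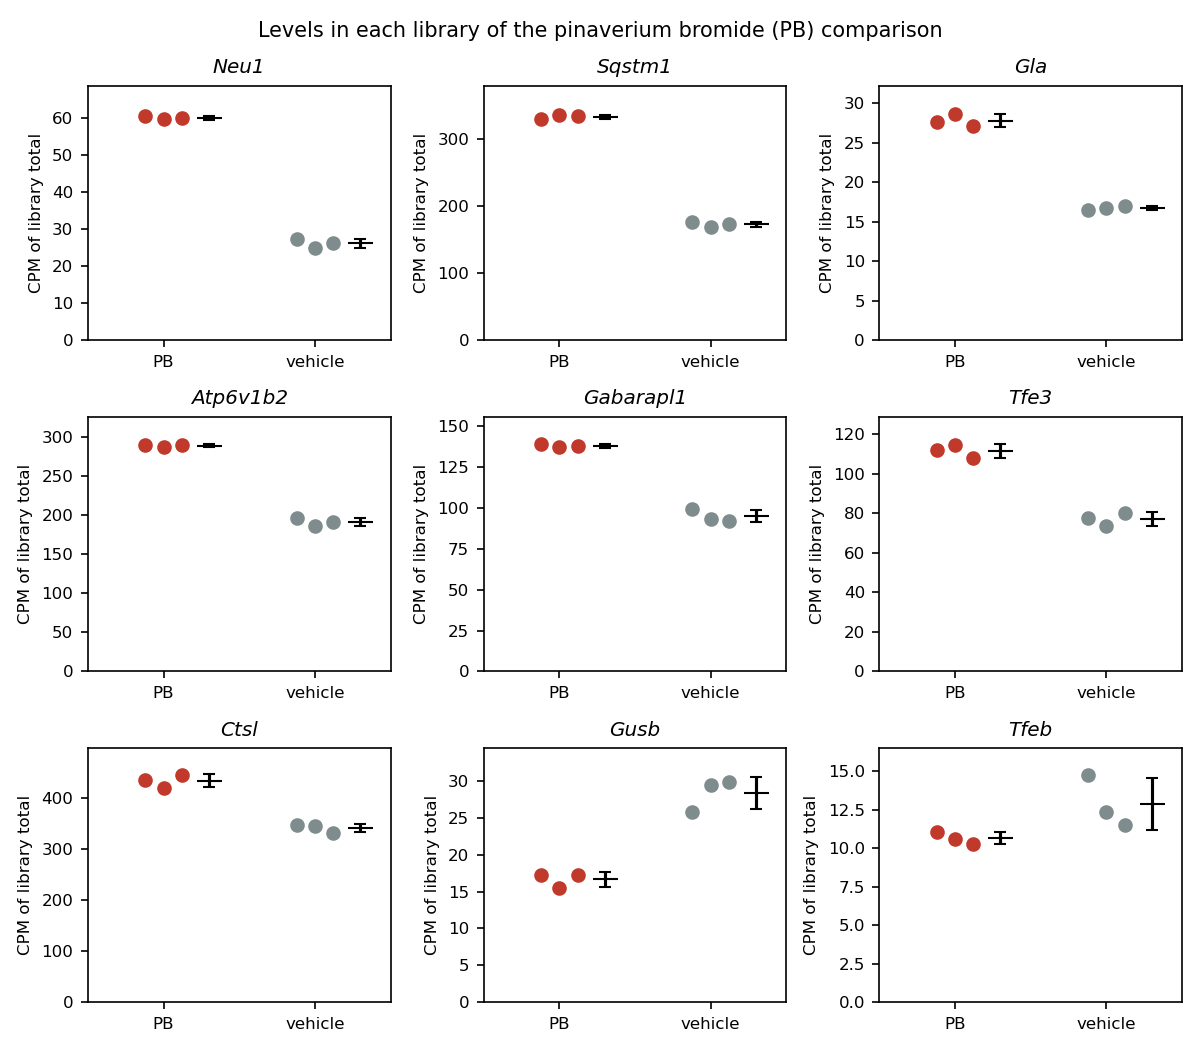
CPM of the library total (vertical axis, from 0) for 9 genes in each PB library (red, left) and each vehicle library (gray, right); the bar beside each group is the mean with its SD. Neu1 stands near 60 CPM in all 3 PB libraries and near 26 CPM in vehicle, while Gusb and Tfeb are lower in every PB library.

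Other genes of the pathway moved in both directions under PB, and the counts below stand beside 36.5% higher and 36.8% lower over all genes. Of the 11 other V-ATPase subunits and accessory genes tested, 10 rose and 1, Atp6v0a2, fell by 0.51 on the log2 scale, with a median of 0.37. Of 35 other autophagy genes, 18 rose and 10 fell. The highest was Atg12, a ubiquitin-like conjugation protein, which rose by 0.81 ± 0.04 (edgeR adjusted p = 1.55e-30). Of 20 genes of nutrient sensing and MiT regulation, 12 rose and 5 fell. Flcn, which encodes folliculin, and its partner Fnip1, parts of the complex that acts on the Rag GTPases, rose by 1.21 ± 0.05 and 1.08 ± 0.04. Depdc5, a GATOR1 subunit, fell by 0.69 on the log2 scale. Other hydrolases were split, with 8 higher and 10 lower of 32 and a median of -0.05. Ctsc, cathepsin C, rose by 1.06. Ctsk, cathepsin K, passed as lower at very low levels, with 0.2001, 0.264 and 0.0644 CPM in PB and 1.27, 2.02 and 1.75 CPM in vehicle. Other membrane and sorting genes were split at 6 higher and 6 lower of 19.

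In premalignant organoids, sgTgfbr2 was set against sgScr, and fewer of the genes passed. With edgeR, 7 of 36 rose and 5 fell, against 22.7% and 23.5% (46.2% in either direction) of all 13098 genes tested, and the median log2 fold change was 0.06, against -0.00 over all genes. Both counts were shares of the 36 below those of all genes. Groups did not overlap for 10 genes higher and 6 lower in sgTgfbr2, against 28.1% and 23.1% of all genes. The 5 that fell were 4 of the 7 V-ATPase subunits and Lamp1. The genes that rose were Scarb2, Hexa, Glb1, Npc2, Gabarapl1, Wipi1 and Ulk1. No protease and neither transcription factor passed. In this comparison, immune markers summed to 35.1 to 61.0 CPM in sgTgfbr2 and 14.9 to 27.9 CPM in sgScr, most of it the lysosomal gene Cd68, and squamous markers to 6753 to 9932 CPM in sgTgfbr2 and 11277 to 12042 CPM in sgScr. Of the 10 squamous markers, 4 were lower in every sgTgfbr2 library, 1, Trp63, was higher and 5 overlapped. Columnar markers summed to 1148 to 1224 CPM in sgTgfbr2 and 822 to 871 CPM in sgScr, and fibroblast markers to 2.34 to 4.69 CPM in sgTgfbr2 and 1.07 to 1.51 CPM in sgScr. Of the 12 immune markers, Cd68 and Cd74 were higher in every sgTgfbr2 library and 10 overlapped. Lyz2, Tyrobp and Adgre1 had no count in either group. The part of these markers in the result was not tested.

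Scarb2 (chr5:92441314-92506833) had 101 and 107 CPM in sgTgfbr2_1 and 129 and 132 CPM in sgTgfbr2_2, against 63.7, 61.5 and 72.1 CPM in sgScr. All 4 sgTgfbr2 libraries lay above all sgScr libraries, and the gene rose 1.70-fold (log2 0.77 ± 0.12, edgeR adjusted p = 0.000945). Lamp1 had 378 and 378 CPM in sgTgfbr2_1 and 361 and 371 CPM in sgTgfbr2_2, against 402, 430.5 and 444 CPM in sgScr. It fell by 0.26 ± 0.08 on the log2 scale (edgeR adjusted p = 0.02), without overlap, a call lost on the library total and without sgScr replicate 2 or sgTgfbr2_2 replicate 2. Mcoln1 had 30.7 and 34.0 CPM in sgTgfbr2_1 and 31.0 and 26.9 CPM in sgTgfbr2_2, against 26.2, 20.4 and 28.8 CPM in sgScr, which overlapped (log2 0.22 ± 0.13, edgeR adjusted p = 0.179).

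Hexa had 12.9 and 13.4 CPM in sgTgfbr2_1 and 15.4 and 15.3 CPM in sgTgfbr2_2, against 9.96, 8.22 and 11.1 CPM in sgScr. It rose by 0.48 ± 0.14 (edgeR adjusted p = 0.0199), and Glb1 rose by 0.43 ± 0.12. Glb1 had 36.2 and 35.9 CPM in sgTgfbr2_1 and 46.8 and 43.5 CPM in sgTgfbr2_2, against 28.1, 27.4 and 30.7 CPM in sgScr. Neither overlapped, and both calls were lost without sgScr replicate 1 or sgScr replicate 2. Npc2 had 151 and 153 CPM in sgTgfbr2_1 and 143 and 151 CPM in sgTgfbr2_2, against 110.3, 116 and 119 CPM in sgScr, and rose by 0.31 ± 0.07 (edgeR adjusted p = 0.00919). Its call was lost without sgScr replicate 1.

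Of the V-ATPase subunits, Atp6v1c1 (chr15:38661933-38692446) had 46.2 and 52.4 CPM in sgTgfbr2_1 and 44.9 and 51.5 CPM in sgTgfbr2_2, against 66.6, 73.2 and 61.9 CPM in sgScr. It fell by 0.54 ± 0.10 on the log2 scale (edgeR adjusted p = 0.00301). Atp6v0d1 had 45.8 and 44.8 CPM in sgTgfbr2_1 and 44.8 and 43.6 CPM in sgTgfbr2_2, against 47.4, 53.7 and 60.6 CPM in sgScr, and fell by 0.34 ± 0.09 on the log2 scale (edgeR adjusted p = 0.0167). Both were below sgScr in every sgTgfbr2 library. Atp6v1b2 fell by 0.39 and Atp6v0e by 0.34 on the log2 scale. The calls of Atp6v0d1 and Atp6v0e were each lost without sgScr replicate 2 or sgTgfbr2_2 replicate 2, and that of Atp6v0d1 also without sgScr replicate 3. Atp6v1b2 and Atp6v1c1 passed in every alternative run, apart from the minimum log2 fold change of 1. The sum over the 7 subunits was 688 ± 22.0 CPM in sgTgfbr2 (SD, n = 4) and 773 ± 26.8 CPM in sgScr (SD, n = 3).

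Wipi1 (chr11:109573331-109611967) had 75.0 and 78.4 CPM in sgTgfbr2_1 and 61.4 and 52.4 CPM in sgTgfbr2_2, against 28.7, 27.5 and 45.9 CPM in sgScr. It rose 1.88-fold (log2 0.91 ± 0.19, edgeR adjusted p = 0.00488), with sgScr replicate 3 nearest to the sgTgfbr2 libraries. Ulk1 had 89.5 and 105 CPM in sgTgfbr2_1 and 114 and 101 CPM in sgTgfbr2_2, against 71.4, 65.0 and 91.2 CPM in sgScr, an overlap, with a rise of 0.37 ± 0.12 (edgeR adjusted p = 0.0315). That call was lost when any of sgScr replicate 1, sgScr replicate 2, sgTgfbr2_1 replicate 2 or sgTgfbr2_2 replicate 1 was left out. Gabarapl1 rose by 0.54. Sqstm1 had 353 and 376 CPM in sgTgfbr2_1 and 367 and 361 CPM in sgTgfbr2_2, against 319, 301 and 374 CPM in sgScr, and did not pass (log2 0.07 ± 0.09, edgeR adjusted p = 0.527). Neither transcription factor separated the groups. Tfe3 had 61.3 and 58.7 CPM in sgTgfbr2_1 and 60.7 and 65.0 CPM in sgTgfbr2_2, against 56.8, 54.2 and 59.5 CPM in sgScr (log2 0.04 ± 0.08, edgeR adjusted p = 0.675). Tfeb had 10.6 and 9.35 CPM in sgTgfbr2_1 and 12.9 and 11.0 CPM in sgTgfbr2_2, against 11.8, 10.4 and 9.67 CPM in sgScr, with a log2 fold change of -0.02 ± 0.15 that was positive, at 0.05, on the library total.

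The sgTgfbr2_1 and sgTgfbr2_2 libraries were not alike for the set. With edgeR, 10 genes were higher and 4 lower in sgTgfbr2_2 than in sgTgfbr2_1, against 13.2% and 13.1% (26.3% in either direction) of all 13438 genes tested. Leaving out sgTgfbr2_1 replicate 1 left 1 higher and 2 lower, without sgTgfbr2_1 replicate 2 or sgTgfbr2_2 replicate 1 there were 3 and 2, and without sgTgfbr2_2 replicate 2 there were 4 and 2. Leaving out sgScr replicate 1 gave 8 higher and 2 lower. Gusb showed the lowest fold. It had 25.2 and 19.8 CPM in sgTgfbr2_2 and 43.8 and 42.5 CPM in sgTgfbr2_1, with 27.7 to 32.3 CPM in sgScr between them, so that sgTgfbr2_2 was lower by 0.93 on the log2 scale (log2 -0.93 ± 0.13, edgeR adjusted p = 0.000195). Tpp1 was higher in sgTgfbr2_2, at 83.9 and 75.8 CPM, than in sgTgfbr2_1, at 56.7 and 53.1 CPM (log2 0.55 ± 0.11, edgeR adjusted p = 0.00277). Ctsl was also higher, at 654 and 660 CPM in sgTgfbr2_2 and 465 and 514 CPM in sgTgfbr2_1, a log2 difference of 0.43. Lamp2, the partner of Lamp1 in the lysosomal coat, followed at 404 and 399 CPM in sgTgfbr2_2 and 286 and 324 CPM in sgTgfbr2_1 (0.41), as did Npc1 at 0.51 and Gla at 0.47. Ctsz, cathepsin Z, was lower, at 193 and 196 CPM in sgTgfbr2_2 and 286 and 272 CPM in sgTgfbr2_1 (log2 -0.51 ± 0.09, edgeR adjusted p = 0.00087). Atp6v1h and Atp6v0e were lower by 0.35 and 0.27 on the log2 scale (log2 -0.35 and -0.27). Tpp1, Ctsz and Gusb were the calls that held in every alternative run made for this contrast. Those runs used DESeq2, the library total, no low-count filter, a replicate block and left-out libraries. Immune markers summed to 59.1 and 61.0 CPM in sgTgfbr2_2 and 35.1 and 37.7 CPM in sgTgfbr2_1. Most of the sum was Cd68, at means of 53.9 CPM in sgTgfbr2_2 and 31.6 CPM in sgTgfbr2_1. Of the 12 immune markers, Cd68, Csf1r and Fcer1g were higher in both sgTgfbr2_2 libraries, Ptprc was lower and 8 overlapped. Squamous markers summed to 9648 and 9932 CPM in sgTgfbr2_2 and 6753 and 6926 CPM in sgTgfbr2_1, and 8 of the 10 were apart, all higher in sgTgfbr2_2. Muscle markers summed to 14.6 and 14.8 CPM in sgTgfbr2_2 and 8.09 and 8.69 CPM in sgTgfbr2_1. Their part in the difference was not tested. Set against sgScr one number at a time, sgTgfbr2_1 had 7 genes higher and 5 lower, against 25.3% and 24% (49.2% in either direction) of all genes. Likewise sgTgfbr2_2 had 13 higher and 8 lower, against 27.7% and 28.5% (56.3% in either direction). Gabarapl1, Glb1, Npc2, Scarb2 and Wipi1 were higher and Atp6v1b2, Atp6v1c1 and Lamp1 lower with each number, and both numbers share the same sgScr libraries. Gusb passed with opposite signs, at -0.50 in sgTgfbr2_2 and 0.46 in sgTgfbr2_1.

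**Figure D3:**
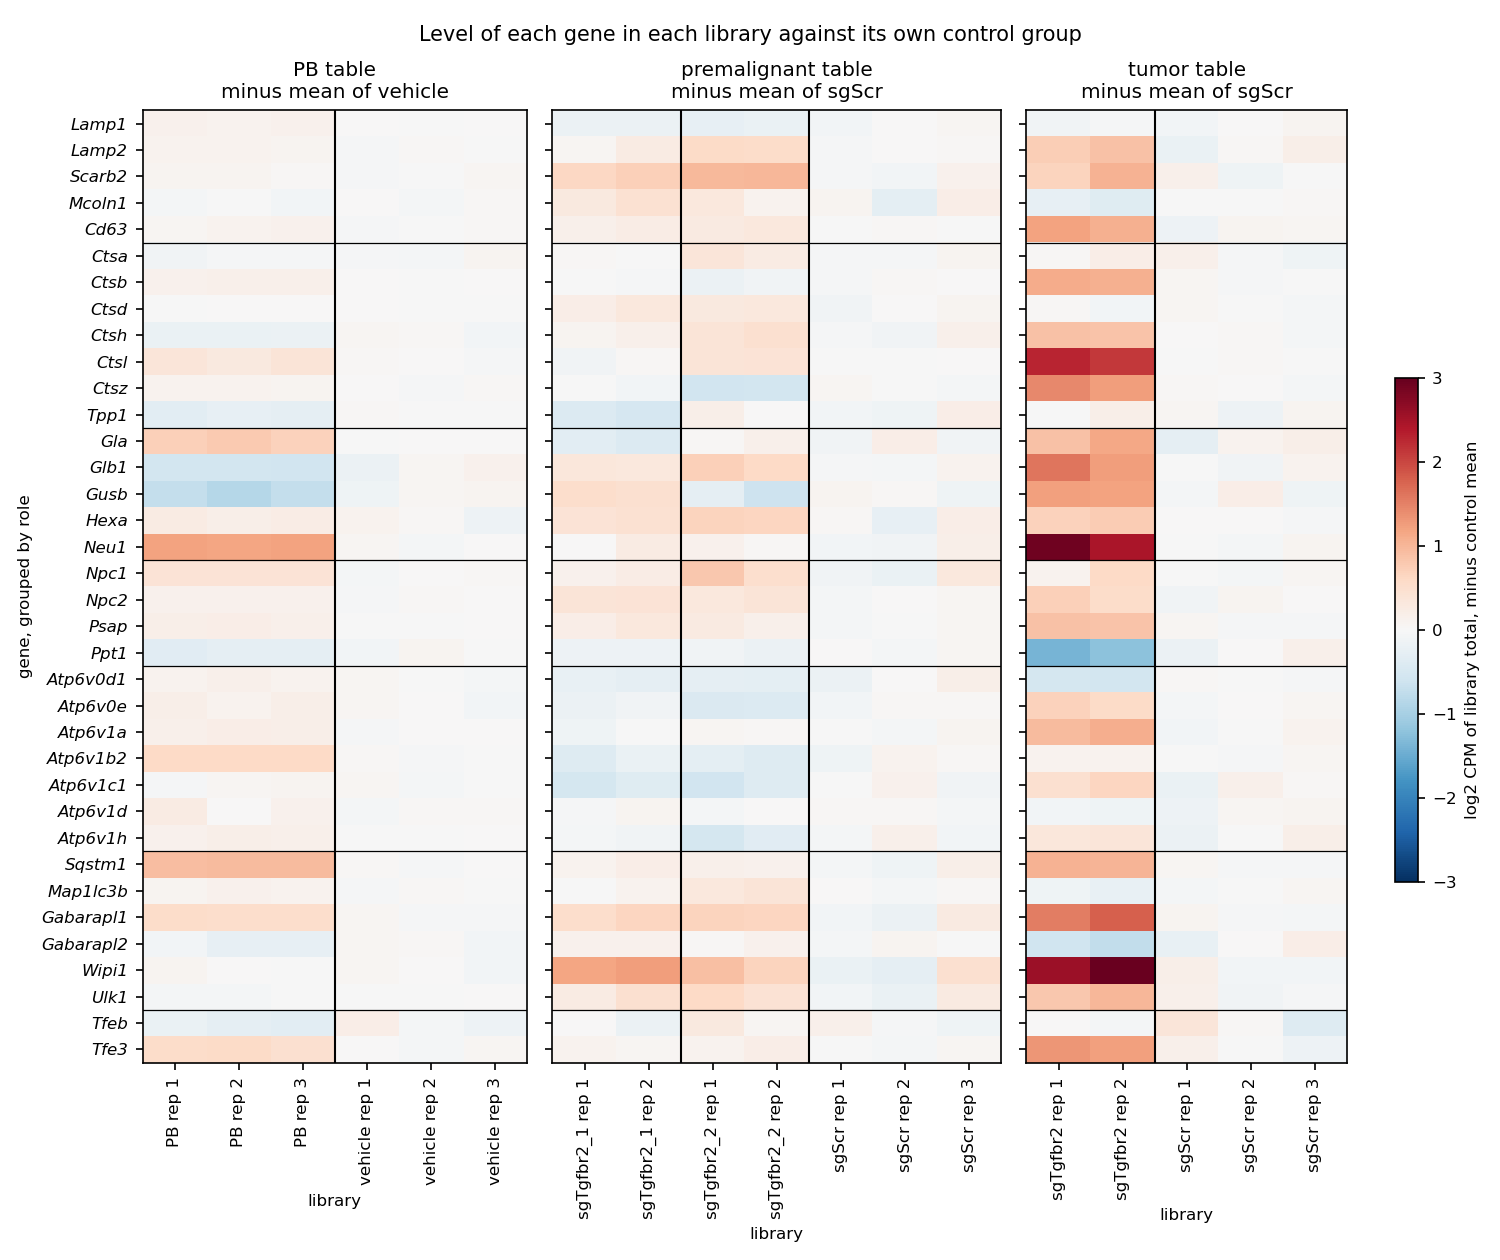
Log2 CPM of the library total for each of the 36 genes (rows, grouped by role) in each library (columns), minus the mean of the control group of the same table; red is higher and blue lower. PB libraries are alike, the sgTgfbr2_1 and sgTgfbr2_2 columns of the premalignant table differ for Gusb, Ctsz and Tpp1, and the tumor table has the strongest colors, for Neu1, Wipi1 and Ctsl.

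Counts of other pathway genes in premalignant organoids stand beside 22.7% higher and 23.5% lower over all genes. In sgTgfbr2, 12 of 31 other hydrolases were higher and 2 were lower, with Arsa, arylsulfatase A, highest at 0.85 ± 0.18 and Ctsc lowest at -0.69 ± 0.09. Of 35 other autophagy genes, 11 rose and 3 fell. Atg9b, a membrane protein of autophagosome formation, rose by 1.62 ± 0.15 (edgeR adjusted p = 0.000113). Of 12 other V-ATPase genes, 2 rose and 4 fell, and the lowest was Atp6v0e2, which fell by 1.28 ± 0.28 on the log2 scale. Of 19 other membrane and sorting genes, 6 rose and 2 fell, with Sort1, the sorting receptor sortilin, the highest (edgeR adjusted p = 0.00034). Of 21 nutrient sensing genes, 4 rose and 6 fell, with the Rag GTPase genes Rragd at 0.87 and Rragc at -0.58.

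In the tumor table, sgTgfbr2 libraries had more of the set higher than lower. With edgeR, 21 of 36 genes rose and 8 fell, against 29.8% and 30.5% (60.3% in either direction) of all 15091 genes tested, and the median log2 fold change was 0.47, against -0.02 over all genes. All 5 glycosidases rose, and so did 4 of 6 autophagy genes, 4 of 7 proteases, 3 of 5 membrane proteins, 2 of 4 lipid-handling genes, 2 of 7 V-ATPase subunits and Tfe3. Of these calls, 17 higher and 3 lower held in every alternative run, apart from the minimum log2 fold change of 1. The calls lost in at least 1 alternative were those of Gla, Hexa, Npc2 and Atp6v0e among the higher genes and of Lamp1, Mcoln1, Ctsd, Atp6v1d and Map1lc3b among the lower. Scaling mattered here. On the library total alone the median moved to 0.26 over all genes and to 0.76 over the 36 genes. With that scaling 23 of the 36 genes were higher and 3 lower. The shares of all genes above come from TMM scaling and are no background for these 2 counts. The sgTgfbr2 libraries lay above all sgScr libraries for 25 of the 36 genes and below for 5, against 46.4% and 27.9% of all genes. The cell-type markers given above moved with the groups. Muscle markers summed to 219 and 261 CPM in sgTgfbr2 and 21611 to 22395 CPM in sgScr, columnar and gland markers to 34639 and 38800 CPM in sgTgfbr2 and 1.95 to 2.69 CPM in sgScr, and squamous markers to 23830 and 24441 CPM in sgTgfbr2 and 122811 to 131083 CPM in sgScr. The squamous list went both ways: Krt4, Krt13, Pkp1 and Perp were lower in both sgTgfbr2 libraries, and Krt5, Krt14, Sox2 and Col17a1 were higher. Most of the sum was Krt4, at means of 3986 CPM in sgTgfbr2 and 64026 CPM in sgScr, and Krt13, at 7701 CPM in sgTgfbr2 and 56029 CPM in sgScr. Krt14, by contrast, had means of 5628 CPM in sgTgfbr2 and 1097 CPM in sgScr. Of the 11 columnar markers, 6 had no count in tumor sgScr, and of the 13 muscle markers, 3 had none in tumor sgTgfbr2. Summed immune markers lay closer, at 1141 and 1233 CPM in sgTgfbr2 and 1134 to 1188 CPM in sgScr. Single markers did not: of the 12, 7 were higher in both sgTgfbr2 libraries, 2 were lower and 3 overlapped. Ptprc, Tyrobp, Itgam, C1qa, C1qb, Laptm5 and Fcer1g were higher, and Lyz2 and Csf1r were lower. The macrophage marker Tyrobp had 28.6 to 38.2 CPM in sgTgfbr2 and 8.73 to 14.0 CPM in sgScr. Lyz2, most of the sum in sgScr, had 572 to 581 CPM in sgTgfbr2 and 747 to 763 CPM in sgScr. Fibroblast markers summed to 2449 and 2515 CPM in sgTgfbr2 and 2989 to 3202 CPM in sgScr. That list also went both ways: Col1a1, Col1a2, Pdgfrb and Postn were higher in both sgTgfbr2 libraries, Dcn, Lum, Pdgfra and Thy1 were lower and 1 overlapped. In bulk RNA, fewer cells of a type and less RNA per cell cannot be told apart, and here the mix of cell types and the genotype cannot be told apart for any gene.

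Among membrane proteins, Cd63, a tetraspanin of lysosomes and endosomes, had 398 and 358 CPM in sgTgfbr2, against 156, 183 and 179 CPM in sgScr, and rose by 0.85 ± 0.13 (edgeR adjusted p = 8.19e-06). Mcoln1 had 16.1 and 14.8 CPM in sgTgfbr2, against 18.8, 18.9 and 19.4 CPM in sgScr. It fell by 0.59 ± 0.19 on the log2 scale (edgeR adjusted p = 0.0107), a call lost on the library total and without sgTgfbr2 replicate 2. Both genes' groups were apart.

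Ctsl (chr13:64359337-64370890) had 771 and 691 CPM in sgTgfbr2, against 156, 162 and 157 CPM in sgScr, a 3.78-fold rise (log2 1.92 ± 0.12, edgeR adjusted p = 1.05e-11). Ctsd had 2246 and 2053 CPM in sgTgfbr2 and 2279, 2167 and 2091 CPM in sgScr, with overlap. Its scaled fold fell by 0.30 ± 0.13 on the log2 scale (edgeR adjusted p = 0.0404) and was -0.02 on the library total, and the call was lost when any library other than sgTgfbr2 replicate 1 was left out. Ctsb, Ctsz and Ctsh rose by 0.81, 1.06 and 0.57.

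Neu1 had 88.4 and 64.3 CPM in sgTgfbr2, against 11.6, 11.2 and 12.5 CPM in sgScr. It rose 5.33-fold (log2 2.41 ± 0.17, edgeR adjusted p = 5.31e-11). Hexa, the glycosidase with the lowest fold, had 62.3 and 65.3 CPM in sgTgfbr2, against 39.3, 39.4 and 37.7 CPM in sgScr, and rose by 0.43 ± 0.14 (edgeR adjusted p = 0.0127). Neither overlapped. The call of Hexa was lost without sgScr replicate 3, and that of Gla without sgTgfbr2 replicate 2.

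Of the lipid-handling genes, Psap had 776 and 757 CPM in sgTgfbr2, against 438, 411 and 409 CPM in sgScr, and rose by 0.59 ± 0.12 (edgeR adjusted p = 0.000261). Ppt1 (chr4:122836242-122859175) had 42.4 and 46.9 CPM in sgTgfbr2, against 98.5, 111 and 124 CPM in sgScr. It fell by 1.60 ± 0.15 on the log2 scale (edgeR adjusted p = 3.5e-09), the lowest of the 36. Each gene's groups were apart.

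The V-ATPase subunits went separate ways. Atp6v1a, the catalytic subunit, had 357 and 393 CPM in sgTgfbr2, against 173, 182 and 199.6 CPM in sgScr, and rose by 0.73 ± 0.12 (edgeR adjusted p = 2.82e-05). Atp6v0d1 had 117 and 115 CPM in sgTgfbr2, against 173, 168 and 165 CPM in sgScr, and fell by 0.82 ± 0.13 on the log2 scale (edgeR adjusted p = 9.94e-06). Atp6v0e rose by 0.35 and Atp6v1d fell by 0.40 on the log2 scale. The call of Atp6v0e was lost without sgScr replicate 2, sgScr replicate 3 or sgTgfbr2 replicate 1. That of Atp6v1d was lost on the library total and without sgScr replicate 2, sgScr replicate 3 or sgTgfbr2 replicate 2. Summed over the 7 subunits, the level was 1257 and 1277 CPM in sgTgfbr2 and 953 to 1049 CPM in sgScr.

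Wipi1 showed the highest fold of the set in this table, with 85.4 and 112 CPM in sgTgfbr2, against 16.4, 13.5 and 13.5 CPM in sgScr (5.58-fold, log2 2.48 ± 0.16, edgeR adjusted p = 8.08e-12). Gabarapl2, an ATG8-family protein like Gabarapl1, had 119.6 and 108 CPM in sgTgfbr2, against 157, 185 and 208 CPM in sgScr. It fell by 0.97 ± 0.14 on the log2 scale (edgeR adjusted p = 5.35e-06), while Gabarapl1 rose by 1.38. Sqstm1 had 422 and 416 CPM in sgTgfbr2, against 214, 199 and 199.9 CPM in sgScr, and rose by 0.75 ± 0.12 (edgeR adjusted p = 1.62e-05). Groups were apart for each of these.

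Tfe3 had 67.6 and 63.4 CPM in sgTgfbr2, against 30.0, 26.6 and 24.1 CPM in sgScr, a rise of 1.00 ± 0.15 (edgeR adjusted p = 8e-06). Tfeb had 24.0 and 22.8 CPM in sgTgfbr2 and 30.3, 24.3 and 17.9 CPM in sgScr, which overlapped, and did not pass (log2 -0.33 ± 0.20, edgeR adjusted p = 0.157).

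**Figure D4:**
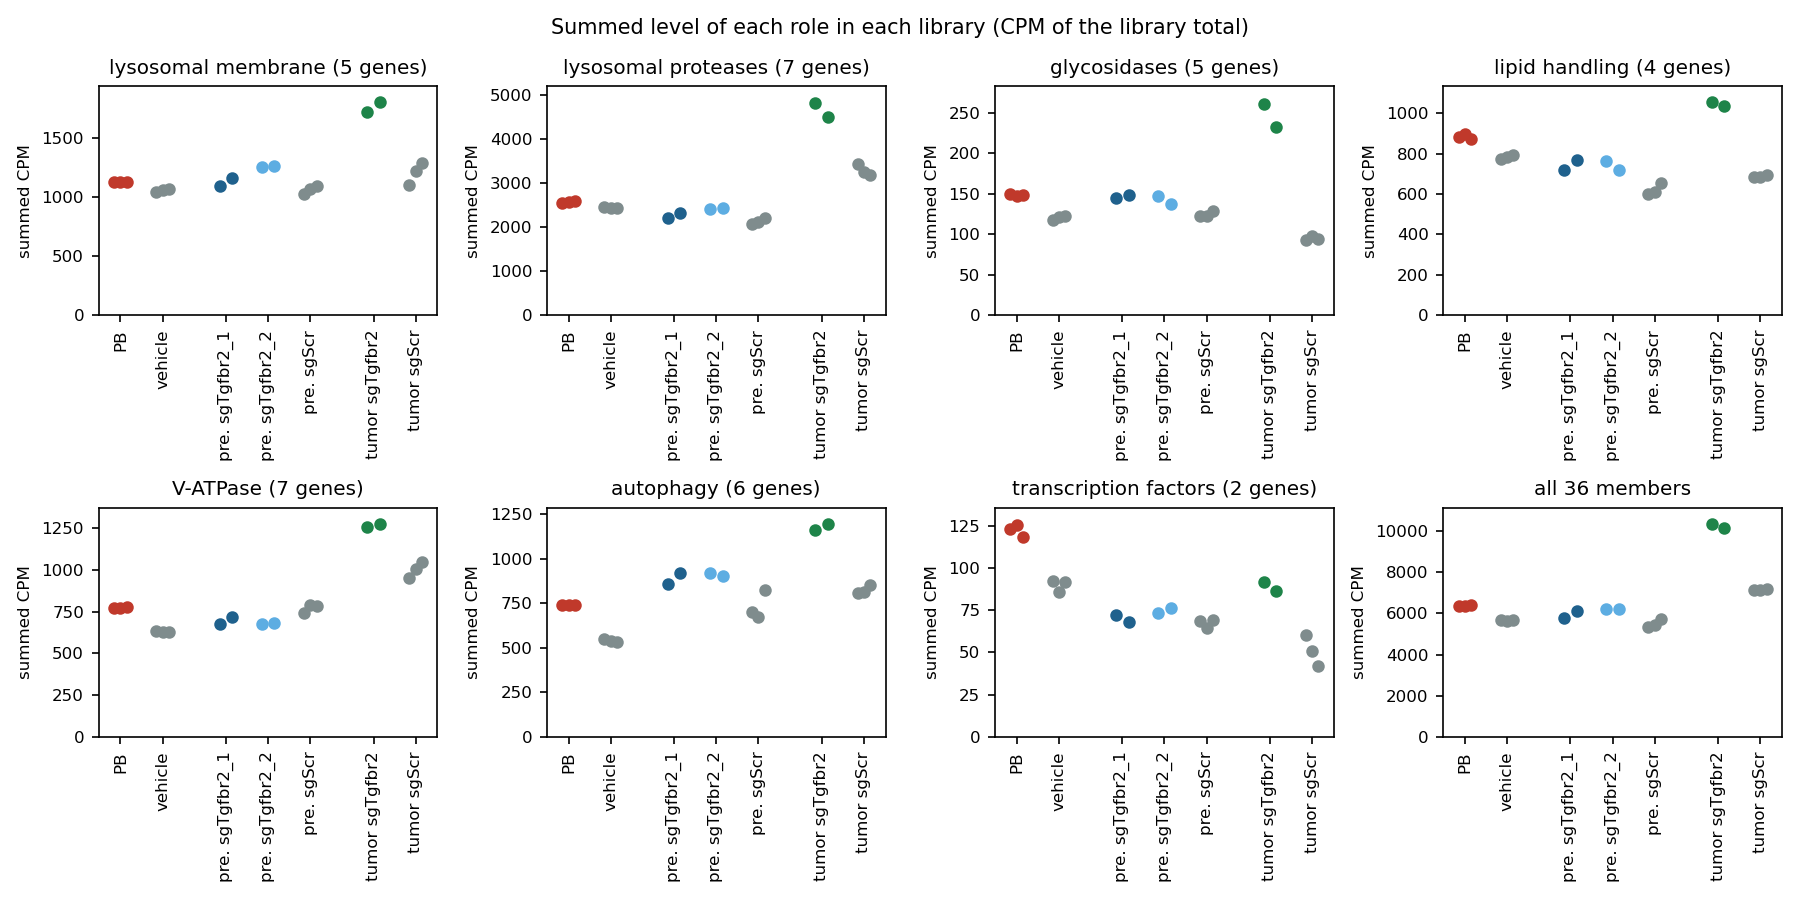
Summed CPM of the library total over the genes of each role (vertical axis, from 0) in each library; red is PB, dark and light blue the premalignant (pre.) sgTgfbr2_1 and sgTgfbr2_2, green tumor sgTgfbr2, gray the control groups. All 36 genes together sum to 10152 and 10370 CPM in tumor sgTgfbr2 and 7128 to 7199 CPM in tumor sgScr.

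Among other pathway genes of the tumor table, isoforms of V-ATPase subunits differed most. The counts below stand beside 29.8% higher and 30.5% lower over all genes. Atp6v0a4, a subunit isoform known from kidney, had 0.542 and 0.280 CPM in sgTgfbr2, against 63.4, 56.7 and 62.1 CPM in sgScr (log2 -7.46 ± 0.27, edgeR adjusted p = 2.89e-16). Atp6v0d2, an isoform known from osteoclasts, had 5.37 and 7.89 CPM in sgTgfbr2, against 0.106, 0.139 and 0 CPM in sgScr. In all, 4 of 14 other V-ATPase genes rose and 7 fell. Other hydrolases were split at 14 higher and 10 lower of 33. Smpd1, acid sphingomyelinase, fell by 3.82 ± 0.16 and Gm2a, the activator of ganglioside breakdown, fell by 3.10 ± 0.17 on the log2 scale. Other membrane and sorting genes numbered 5 higher and 6 lower of 19. Other autophagy genes numbered 8 higher and 9 lower of 35, and nutrient sensing genes 3 higher and 6 lower of 22, with Rragd lower by 3.63 on the log2 scale (log2 -3.63 ± 0.29). The muscle and columnar marker values above stand beside these counts too.

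The sgTgfbr2 effect itself differed between the tumor and premalignant tables for much of the set. In 1 fit over the 12 libraries, the log2 effect was higher in the tumor table for 16 genes and lower for 6, against 25% and 24.5% (49.5% in either direction) of all 15671 genes tested, with a median difference of 0.29 over the 36 genes and -0.03 over all. Neu1 differed by 2.38 ± 0.20 (edgeR adjusted p = 1.42e-07), with 2.41 in the tumor table and 0.03 in the premalignant one. Ppt1 differed by -1.40 ± 0.16 (edgeR adjusted p = 3.01e-06), with -1.60 in the tumor table and -0.21 in the premalignant one. Of the glycosidases, 4 of 5 differed with the tumor effect higher, but only the call of Neu1 held in every alternative run. That of Gla was lost without tumor sgTgfbr2 replicate 2, and that of Glb1 without tumor sgTgfbr2 replicate 1. That of Gusb was lost with the replicate block and without tumor sgTgfbr2 replicate 1 or 2, tumor sgScr replicate 1 or 3, premalignant sgTgfbr2_2 replicate 1, or premalignant sgScr replicate 1 or 2. The call of Psap was also lost without tumor sgTgfbr2 replicate 1. In all, 12 of the 16 higher and 3 of the 6 lower calls held. Ctsl, Wipi1, Ctsz and Ctsb differed by 1.78, 1.57, 1.40 and 0.96. Gabarapl2, Mcoln1, Map1lc3b and Ctsd had the lower effect in the tumor table, by -1.01, -0.82, -0.61 and -0.52. Of the V-ATPase subunits, Atp6v0e, Atp6v1a and Atp6v1c1 had the higher effect in the tumor table, and Atp6v0d1 the lower. The calls of Atp6v0d1, Ctsd and Map1lc3b were lost on the library total, and that of Ctsd also without tumor sgTgfbr2 replicate 2. Since muscle and columnar markers part the tumor groups, and not the premalignant ones to that extent, stage and cell mix cannot be told apart in this difference.

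**Figure D5:**
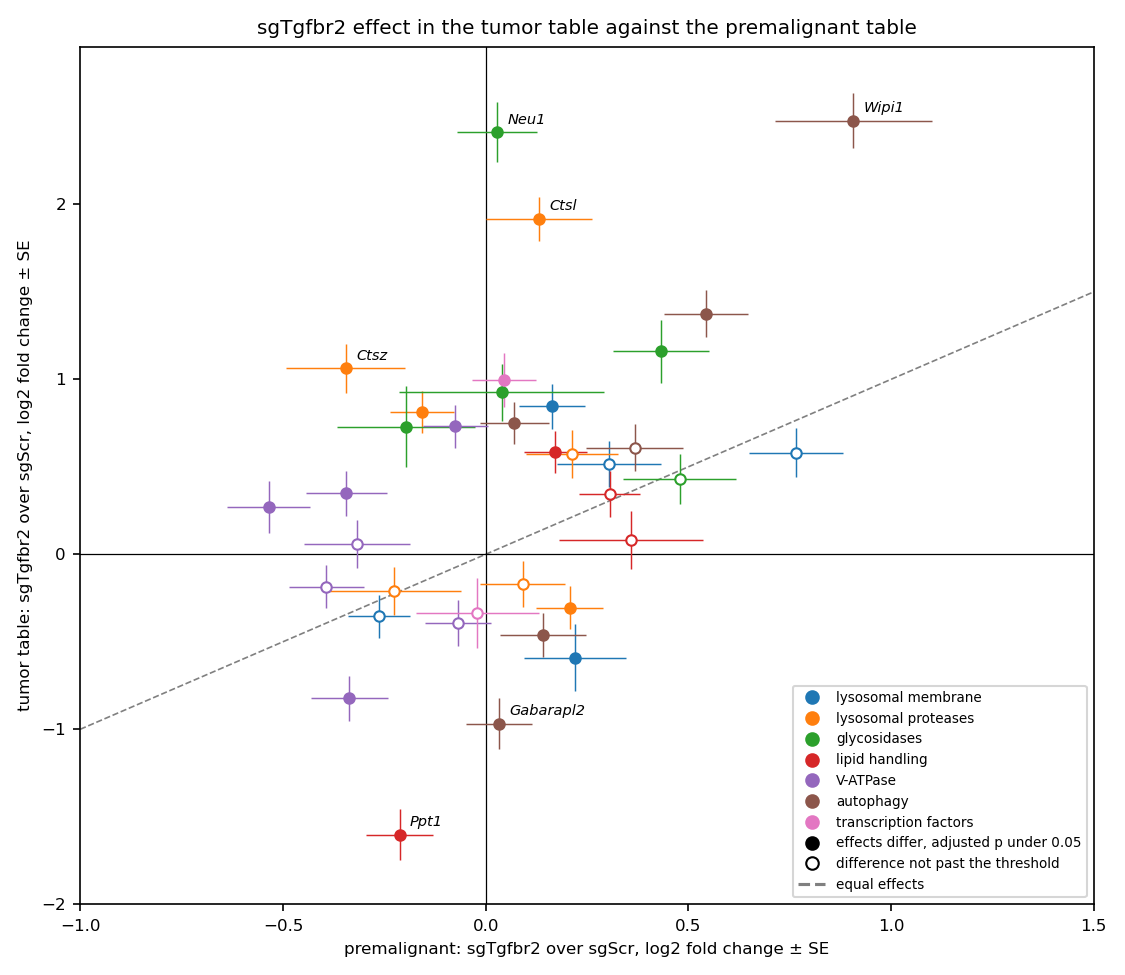
The sgTgfbr2 effect (log2 fold change over sgScr, with its standard error) in the tumor table (vertical) against the premalignant table (horizontal), 1 point per gene, colored by role; filled points have effects that differ at an adjusted p under 0.05, and genes with a difference of at least 1 are named. Neu1 lies at 2.41 in the tumor table and 0.03 in the premalignant table, and Ppt1 at -1.60 in the tumor table and -0.21 in the premalignant table.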

How the data were processed

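RNA-seq of 18 libraries was deposited as 3 tables, 1 per comparison, of 24421 genes each, with 24394 symbols in common. Per the file headers, each table holds the authors' read counts per gene and library. It also holds the authors' normalized signal (counts over a size factor per library, by their constant ratio), log2 fold changes, a test score and p-values. STAR 2.6.0a, DESeq2 1.26.0 and mm10 are named in the submitters' processing notes, while the sources used here give no counting program, strand setting or annotation. Genes that overlap on opposite strands may therefore share reads. Total counts were 14993749 to 21784140 per library.

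The counts were refitted with edgeR 4.0.16 in R 4.3.3: filterByExpr (minimum count 10), TMM scaling and the quasi-likelihood F test. Benjamini-Hochberg adjustment ran over all genes that passed the filter in a comparison, with a two-sided threshold of 0.05. Standard errors are the log2 fold change over the square root of F. The tumor and premalignant tables were joined in 1 fit to test the difference of their effects. Alternatives used DESeq2 1.42.0, limma-voom (limma 3.58.1), other scalings and filters, a replicate block, single sgTgfbr2 numbers and left-out libraries. Limma-voom and a minimum log2 fold change of 1 were not run between the numbers or for the difference between tables. In simulated counts of the PB comparison (12801 genes), 90% of genes changed 2-fold were recovered, and 5.5% of the calls were false. In the authors' deposited tables, 26 of the 36 genes were positive and 3 negative at an adjusted p under 0.05 for PB, 9 and 5 for premalignant, and 21 and 8 for tumor. The shares of all genes that passed there were not counted.

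Members, gene lists and markers were chosen with earlier results of these data known. Per-library values are given for the highest and the lowest fold past the threshold in each role, and for Mcoln1, Sqstm1, Tfeb and Tfe3. For the contrast of numbers and the difference between tables, up to 5 genes at each end are named. Other pathway genes (127 listed, 126 of them in the tables) are counted, and named only among the 2 highest or 2 lowest past the threshold in their list. Promoters came from RefSeq (GRCm38.p6). No libraries were merged, since replicates differed by more than counting noise.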

Additional observations from a re-analysis of the deposited data

Results flagged for a closer look

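The sgTgfbr2 effect, over sgScr, differed between the tumor and premalignant tables at an adjusted p under 0.05 in edgeR for 22 of the 36 genes. Over all 15671 genes tested, 49.5% differed. The log2 effect in the tumor table minus that in the premalignant table was 2.38 for Neu1, 1.78 for Ctsl, 1.57 for Wipi1, 1.40 for Ctsz, 0.96 for Ctsb, 0.94 for Tfe3, 0.91 for Gla and 0.88 for Gusb. It was 0.82 for Gabarapl1, 0.80 for Atp6v1c1, 0.80 for Atp6v1a, 0.72 for Glb1, 0.68 for Atp6v0e, 0.67 for Cd63, 0.67 for Sqstm1 and 0.41 for Psap. It was negative for the others: -0.50 for Atp6v0d1, -0.52 for Ctsd, -0.61 for Map1lc3b, -0.82 for Mcoln1, -1.01 for Gabarapl2 and -1.40 for Ppt1. Muscle and columnar markers differ between the tumor groups, so that stage and the mix of cell types cannot be told apart here. Among the 4 premalignant sgTgfbr2 libraries, Gabarapl2 had 78.9 CPM in sgTgfbr2_2 replicate 1, against 84.1 to 84.7 CPM in the others, a gap of 0.888 of the range. That is wider than the limit that chance passes in about 1 in 20 groups. All 36 genes were checked in this way and only Gabarapl2 was flagged, no more than that rate gives. The limit also takes the 4 libraries as 1 group, though they are 2 of each number.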

How the results depend on the processing

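Counts are of the 36 genes, higher then lower, and were within 1.5 times the reported ones unless given here. Shares over all genes are not given beside them here. With a minimum absolute log2 fold change of 1, PB kept 2 and 0 genes, premalignant sgTgfbr2 0 and 0, and tumor sgTgfbr2 6 and 1. On the library total alone, 7 genes were lower under PB, 11 higher in premalignant sgTgfbr2, 3 lower in tumor sgTgfbr2 and 3 lower in the difference between tables. That scaling moved the median of all genes to -0.15 for PB, 0.07 for premalignant, 0.26 for tumor and 0.20 for the difference, and turned Ulk1 under PB to -0.035. DESeq2 called 11 genes higher in premalignant sgTgfbr2. There sgTgfbr2_2 alone gave 13 and 8, with Gusb at -0.50, and 3 groups in the fit gave 12 and 10.

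Same-numbered libraries did not deviate together (correlations of -0.0876 to 0.128), so they were not treated as pairs. With a replicate block, 2 genes were lower in premalignant sgTgfbr2 and 5 in tumor sgTgfbr2.

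Leaving out 1 library gave 26 to 27 and 3 to 4 genes under PB, 3 to 9 and 2 to 7 in premalignant sgTgfbr2, 18 to 20 and 5 to 7 in tumor sgTgfbr2, 1 to 10 and 2 to 5 between the numbers, and 13 to 16 and 5 to 7 in the difference. Premalignant genes higher numbered 3 without sgScr replicate 1 and 4 without sgScr replicate 2, and genes lower 2 without sgScr replicate 2 or sgTgfbr2_2 replicate 2. Tumor genes lower numbered 5 without sgScr replicate 2 or sgTgfbr2 replicate 2. A lone library left in an arm was assumed to vary like the other groups. The cause of these changes was not tested. With 2 tumor sgTgfbr2 libraries, 66% of genes changed 2-fold were recovered in simulated counts, and 7.65% of the calls were false. For the difference between tables, 40% of such genes were recovered and 7.09% of the calls were false. These simulations also changed only a small part of the genes, so the rates may not hold for the real calls.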
